A study of Mus musculus with 69 samples.

Results

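The 10 genes described here encode chemokines and the cytokines of the macrophage colony-stimulating factor receptor: Ccl20, Ccl2, Ccl7, Cxcl1, Cxcl2, Cxcl10, Cxcl12, Cx3cl1, Il34 and Csf1. They were picked by name from 4 expression tables that together list 56783 genes, of which 52404 are in all 4, and all 10 members were listed in every table. The choice was made with the low Ccl20 values of collecting ducts at 24 h in view, so the members' values in collecting ducts at 24 h are given as a description, with no p-value.

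The tubules came from 7-week-old wild-type male C57BL/6 mice from Taconic, operated on either as sham controls or by surgical excision of 1 kidney (unilateral nephrectomy, UNx). Proximal tubule S1 segments (PT-S1, the first stretch of the tubule that reabsorbs the filtrate) and cortical collecting ducts (CCD, where water and salt excretion are set) were dissected by hand 24 h or 72 h later, and polyA RNA was sequenced after SMART-Seq V4 amplification. In PT-S1 at 24 h, 3 sham animals gave 8 libraries and 4 UNx animals gave 9, and at 72 h each group had 5 animals and 12 libraries. In CCD at 24 h, 4 sham animals gave 8 libraries and 3 UNx animals gave 7, and at 72 h each group had 4 animals, with 7 sham and 6 UNx libraries. The animal is the replicate in the main tests, and their p-values set a difference of means against the spread between animals. Comparisons of single libraries are descriptions. A dissected segment is a bulk sample that can carry attached vessel and immune cells, so fewer cells of a type and less RNA per cell cannot be told apart.

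Chemokines are small secreted proteins that draw leukocytes along a gradient through G-protein-coupled receptors. Some are made at low level until inflammatory signals act through NF-kappaB or interferon, as Ccl20, Cxcl1, Cxcl2, Ccl2 and Cxcl10 are, while Cxcl12 and Cx3cl1 are made by many resting tissues. Il34 and Csf1 both bind the receptor Csf1r, on which macrophages depend, and kidney tubule cells are a known source of both.

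The 250 bases before the RefSeq start site (build GRCm38.p6) were available for 7 of the 10 genes, and those of Ccl20, Cxcl1, Cxcl2 and Cxcl10 are shown because these 4 had the largest differences between UNx and sham in CCD at 24 h. All are written 5′ to 3′ on the gene's own strand: Ccl20 from chr1:83116516-83116765 (plus strand), Cxcl1 from chr5:90890995-90891244 (plus), Cxcl2 from chr5:90903649-90903898 (plus) and Cxcl10 from chr5:92348890-92349139 (minus). Capitals mark matches on either strand to the NF-kappaB consensus, to the core of the interferon-stimulated response element (GAAANNGAAA) or to AP-1 (TGANTCA).
Ccl20: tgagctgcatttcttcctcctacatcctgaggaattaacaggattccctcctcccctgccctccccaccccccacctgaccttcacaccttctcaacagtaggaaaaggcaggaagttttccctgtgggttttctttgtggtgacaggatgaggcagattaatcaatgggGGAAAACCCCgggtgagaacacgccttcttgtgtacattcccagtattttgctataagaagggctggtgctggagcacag
Cxcl1: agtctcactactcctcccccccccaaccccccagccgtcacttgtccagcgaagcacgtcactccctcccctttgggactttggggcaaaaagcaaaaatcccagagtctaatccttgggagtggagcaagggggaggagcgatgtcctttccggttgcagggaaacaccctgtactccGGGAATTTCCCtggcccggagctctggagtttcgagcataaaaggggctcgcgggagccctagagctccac
Cxcl2: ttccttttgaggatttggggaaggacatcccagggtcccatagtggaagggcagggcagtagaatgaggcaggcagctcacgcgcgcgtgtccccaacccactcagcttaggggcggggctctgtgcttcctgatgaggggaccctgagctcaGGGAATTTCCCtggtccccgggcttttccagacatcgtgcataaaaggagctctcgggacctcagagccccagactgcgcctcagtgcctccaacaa
Cxcl10: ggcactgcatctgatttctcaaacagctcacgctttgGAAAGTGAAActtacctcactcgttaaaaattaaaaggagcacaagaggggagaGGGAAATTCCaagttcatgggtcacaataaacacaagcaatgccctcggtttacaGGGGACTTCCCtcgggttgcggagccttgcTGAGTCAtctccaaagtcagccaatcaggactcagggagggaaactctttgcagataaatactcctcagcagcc
The NF-kappaB consensus was present upstream of 5 of the 7 genes (Ccl20, Cxcl1, Cxcl2, Cxcl10 and Csf1), against 7.25% of 32851 mouse promoter windows of the same length. In Ccl20 it lay from -80 to -71 relative to the start, in Cxcl1 from -71 to -61 and in Cxcl2 from -97 to -87; the run in capitals is the same in Cxcl1 and Cxcl2. Csf1 had its match from -154 to -145. Cxcl10 alone among the 7 held the interferon element core, from -213 to -204 (2.98% of all windows), and the AP-1 letters, from -74 to -68 (6.75%), besides NF-kappaB matches from -159 to -150 and from -104 to -94. No match to these 3 motifs was present in the windows of Cxcl12 and Cx3cl1. A match describes the letters in the window and is not a measured binding site.

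The principal cell and S1 markers fitted the labels. The summed level of 7 principal cell markers (Aqp2 and others) was 22130 to 73790 TPM (transcript abundance scaled to gene length and library total, which keeps no sequencing depth) in CCD libraries and at most 158.0 TPM in PT-S1 libraries. The summed level of 5 S1 markers was 1804 to 16390 TPM in PT-S1 and at most 109.2 TPM in CCD libraries. Within PT-S1 this sum was lowest in 2 UNx libraries at 72 h (1804 and 1871 TPM). Both are also among 5 libraries with a median correlation to their table under 0.92. The 4 markers of the S3 segment of the proximal tubule summed to at least 100 TPM in 4 libraries of each PT-S1 table. The same sum had medians of 63.42 to 80.34 TPM over the CCD groups, and its highest value in sham CCD was above 100 TPM at both times. In CCD at 72 h only 1 of the 4 markers had a median of at least 1 TPM in either group. The sum is therefore not particular to S3 tubule. Markers of the thick ascending limb summed to 6913 and 1428 TPM in 2 sham CCD libraries at 24 h. Macrophage markers summed to 2.45 to 119.7 TPM in PT-S1 and 39.98 to 148.1 TPM in CCD libraries, with ranges that overlapped between sham and UNx in each table. The median difference between UNx and sham over all genes tested was -0.19 on the log2(TPM + 1) scale in PT-S1 at 24 h and -0.29 at 72 h. It was 0.01 in both under median-ratio scaling, and it was -0.04 and 0.01 in CCD at 24 h and 72 h.

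Detection ran from no library to every library of a segment. Cx3cl1 and Il34 were at 1 TPM or more in all 69 libraries, and Cxcl1, Cxcl12 and Csf1 were above 0 in all of them. Ccl20 was above 0 in 19 of 28 CCD libraries (16 at 1 TPM or more) and in 1 of 41 PT-S1 libraries, at 0.38 TPM. Ccl7 was listed at 0 in all 41 PT-S1 libraries and was above 0 in 3 of 28 CCD libraries, while Ccl2 was above 0 in 14 PT-S1 and 19 CCD libraries but reached 1 TPM in 2 and 3 of them. Cxcl2 was above 0 in 13 of 41 PT-S1 libraries and in 26 of 28 CCD libraries. Depth is unknown here, so a value of 0 says that the gene was listed at 0 and sets no limit on its level.

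**Figure D1:**
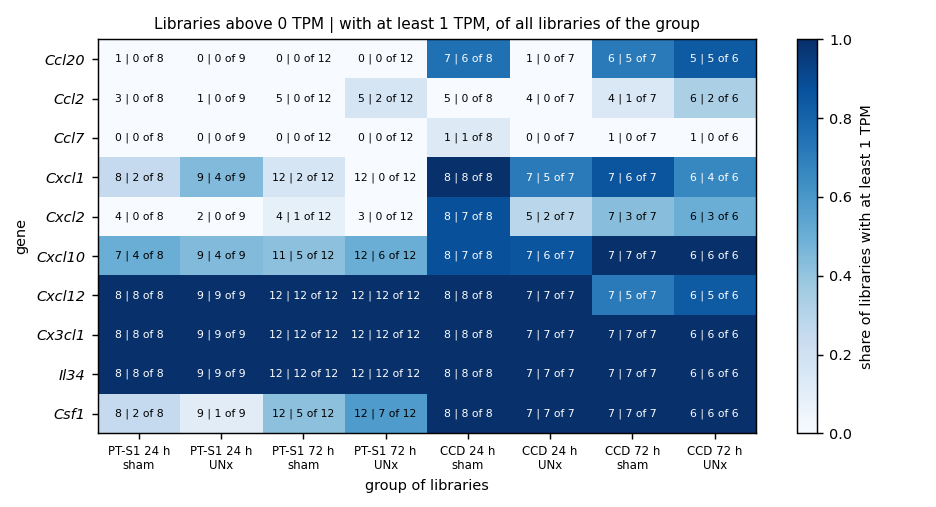
Each cell gives the number of libraries with the gene above 0 TPM, then the number with at least 1 TPM, of all libraries of the group, and its shade is the share with at least 1 TPM. Ccl20 was above 0 in 7 of 8 sham and 1 of 7 UNx libraries of CCD at 24 h and in 1 of 41 PT-S1 libraries.

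In sham animals the order of the levels differed between the segments, with the reservation that each table was normalized separately. In sham CCD at 24 h Cx3cl1 was highest at 52.1 ± 11.8 TPM (SD, n = 4), followed by Csf1 at 27.4 ± 8.36, Il34 at 20.3 ± 4.21, Ccl20 at 11.9 ± 7.02, Cxcl1 at 8.17 ± 1.92, Cxcl10 at 7.77 ± 5.13, Cxcl12 at 5.90 ± 1.21 and Cxcl2 at 2.65 ± 2.03 TPM. The animals of each gene overlapped with those of the next in that order, down to Cxcl2, which lay above Ccl7 (0.211 ± 0.423 TPM) in every animal. In sham PT-S1 at 24 h Cxcl12 was highest at 29.8 ± 2.43 TPM (SD, n = 3) and its animals lay above those of Cx3cl1 in mean TPM, although the ranges overlapped with libraries averaged on the log2 scale. Cx3cl1 (21.8 ± 2.70 TPM) and Il34 (21.0 ± 2.22 TPM) overlapped, and both lay above the other 7 members, the next of which was Cxcl10 at 1.47 ± 1.33 TPM.

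At 72 h the same 3 genes led in sham PT-S1, with Il34 at 10.4 ± 5.52, Cx3cl1 at 9.48 ± 3.9 and Cxcl12 at 8.68 ± 4.04 TPM (SD, n = 5), and their animals overlapped. In sham CCD at 72 h Cx3cl1 at 42.6 ± 14.2 TPM (SD, n = 4) lay above Csf1 at 20.3 ± 5.68 TPM in mean TPM, again with overlap on the log2 scale, and each following pair of neighbours overlapped. The mean of Csf1 was 36.9 times higher in CCD than in PT-S1 sham animals at 24 h and 18.4 times at 72 h, that of Cxcl1 13.1 and 12.2 times, and that of Cx3cl1 2.39 and 4.49 times, with no overlap between animals of the segments at either time. Cxcl12 went the other way, 5.05 times higher in PT-S1 at 24 h with no overlap and 2.54 times at 72 h with overlap. The mean of Il34 differed by 1.03 times at 24 h and 1.55 times at 72 h, with overlap at both.

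Ccl20, the ligand of Ccr6 on some T cells, B cells and dendritic cells, was close to absent from the UNx collecting ducts at 24 h. The 2 libraries of sham animal 1 held 9.20 and 30.6 TPM, those of animal 2 held 0.62 and 4.96, the library of animal 3 held 11.7, and those of animal 4 held 33.4, 5.66 and 0 TPM. Of the 7 UNx libraries 6 were listed at 0 and 1 library of animal 3 held 0.11 TPM. The animal means were 11.9 ± 7.02 TPM in sham (SD, n = 4) and 0.0122 ± 0.0212 TPM in UNx (SD, n = 3), without overlap. The UNx libraries were low throughout, while the sham libraries spread over their whole range even within animal 4, where 1 of 3 was at 0.

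The difference at 24 h was -3.00 on the log2(TPM + 1) scale (SE 0.52), which makes changes look smaller where values are low. It was -3.04 without the 2 sham libraries highest in thick ascending limb markers. These values chose the gene and are not evidence of their own. The principal cell marker sum was 24910 to 51820 TPM in the sham and 47190 to 73790 TPM in the UNx libraries, and it was between 24910 and 27330 TPM in all 5 libraries of sham animals 1 and 4, which include the 2 highest Ccl20 values and the value of 0. This sum was 49090 to 51820 TPM in the libraries of sham animals 2 and 3, which held 0.62, 4.96 and 11.7 TPM of Ccl20. Its part in the Ccl20 difference was not tested. Macrophage marker sums overlapped, with 50.69 to 136.6 TPM in sham and 46.03 to 148.1 TPM in UNx libraries.

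The near absence was not seen at 72 h. In sham libraries Ccl20 was at 16.1 and 25.2 TPM in animal 1, 21.5 in animal 2, 0.05 in animal 3 and 13.2, 11.3 and 0 in animal 4. In UNx libraries it was at 16.9 and 1.04 TPM in animal 1, 30.4 in animal 2, 6.55 in animal 3 and 0 and 1.13 in animal 4. Both groups ran from 0 to 25.2 TPM or above and overlapped. The means over animals were 12.6 ± 10.4 and 11.6 ± 13.0 TPM (SD, n = 4 each), a difference of -0.11 (SE 1.09, limma with Benjamini-Hochberg adjustment, adjusted p = 0.995). Changes as large as that standard error could not be told from the spread between animals. Its sign was positive without sham animal 1, sham animal 2 or UNx animal 4.

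In these CCD libraries Ccl20 varied between tubule samples of the same mouse more than nearly all other genes tested. The SD between libraries of an animal was 1.42 on the log2(TPM + 1) scale in CCD at 24 h and 1.73 at 72 h, where the median gene tested had 0.20 and 0.31. These values stood at the 99.0th and 99.3rd percentile of all genes tested, which is a description that includes the dependence of the spread on the level. Cxcl10 came next among the members, with 0.90 and 1.44 (97.2nd and 98.9th percentile). The Ccl20 value at 24 h rests on the sham libraries, as those of UNx lay at 0 to 0.11 TPM, and it comes from the values that chose the gene. Animals with 1 library add nothing to these SDs: sham animal 3 at 24 h, and sham and UNx animals 2 and 3 at 72 h.

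**Figure D2:**
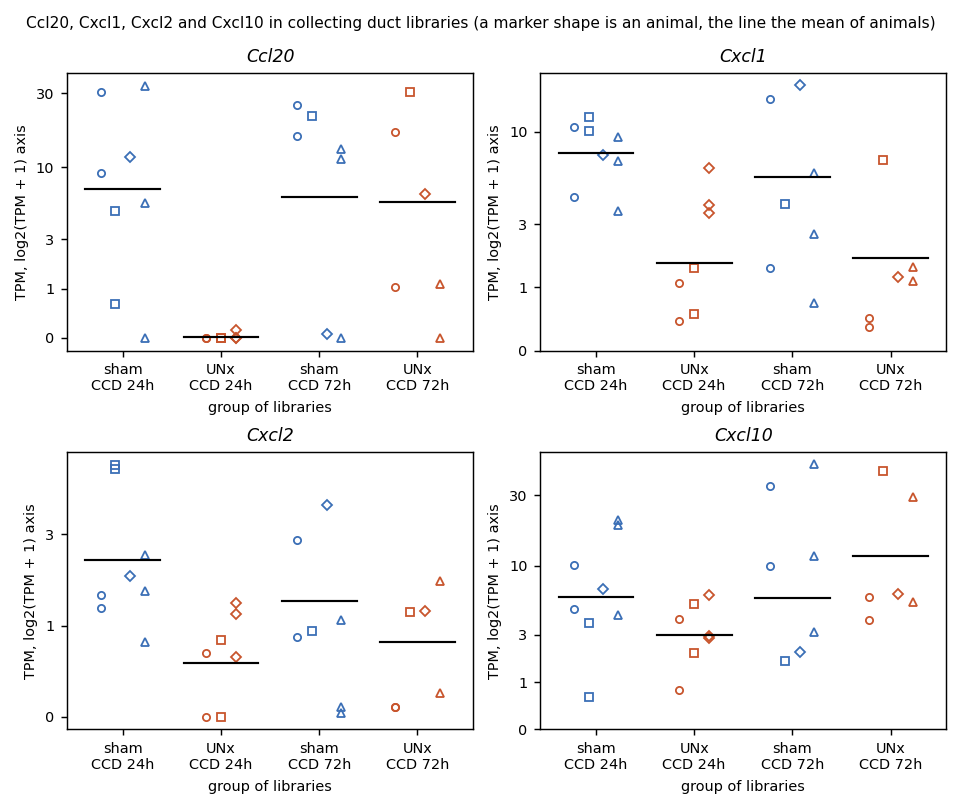
TPM of Ccl20, Cxcl1, Cxcl2 and Cxcl10 in each CCD library on a log2(TPM + 1) axis, by operation and time; marker shapes are animals and the black line is the mean of the animals. At 24 h the UNx libraries of Ccl20 lie at 0 to 0.11 TPM, and at 72 h both groups reach from 0 to 25.2 TPM or above.

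Cxcl1 and Cxcl2, which recruit neutrophils through Cxcr2, were also lower in UNx collecting ducts at 24 h. Cxcl1 was 4.39 and 10.6 TPM in the libraries of sham animal 1, 10.1 and 11.9 in animal 2, 7.51 in animal 3 and 7.01, 9.40 and 3.62 in animal 4. In UNx it was 1.09 and 0.38 TPM in animal 1, 1.47 and 0.50 in animal 2 and 3.91, 3.52 and 6.38 in animal 3. The sham libraries were all at 3.62 TPM or above and those of UNx animals 1 and 2 all at 1.47 TPM or below, while UNx animal 3 reached into the sham range. The animal means, 8.17 ± 1.92 TPM (SD, n = 4) and 2.11 ± 2.17 TPM (SD, n = 3), did not overlap, and the difference was -1.74 (SE 0.38).

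Cxcl2 in CCD at 24 h ran from 0.76 to 5.78 TPM over the sham libraries (median 1.76) and from 0 to 1.38 TPM over the UNx libraries (median 0.62). The highest sham values, 5.78 and 5.59 TPM, were both from animal 2. Animal means were 2.65 ± 2.03 TPM (SD, n = 4) and 0.584 ± 0.403 TPM (SD, n = 3), without overlap, a difference of -1.13 (SE 0.37).

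In CCD at 72 h Cxcl1 was 1.47 and 14.7 TPM in the libraries of sham animal 1, 3.98 in animal 2, 17.3 in animal 3 and 0.69, 5.98 and 2.57 in animal 4. In UNx it was 0.30 and 0.43 TPM in animal 1, 7.04 in animal 2, 1.23 in animal 3 and 1.14 and 1.5 in animal 4. Of the 4 UNx animals 3 lay below all sham animals and animal 2 lay among them. The means were 8.11 ± 6.51 and 2.49 ± 3.07 TPM (SD, n = 4 each), and the difference of -1.28 (SE 0.61) did not pass the threshold of 0.05 (limma adjusted p = 0.700, unadjusted p = 0.061). Without the sham library of low correlation it was -0.95 (limma adjusted p = 0.560). Cxcl2 averaged 1.79 ± 1.58 and 0.884 ± 0.546 TPM, with overlap and a difference of -0.44 (SE 0.41, limma adjusted p = 0.900).

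Proximal tubules held little of either gene. Cxcl1 was above 0 in all 41 PT-S1 libraries but reached 1 TPM in 8 of them and 1.98 TPM at most. Its animal means at 24 h were 0.626 ± 0.209 TPM in sham (SD, n = 3) and 1.02 ± 0.454 TPM in UNx (SD, n = 4). At 72 h they were 0.663 ± 0.388 TPM and 0.304 ± 0.146 TPM (SD, n = 5 each), and both pairs overlapped. The mean over all animals of each of these tables was under the minimum of 1 TPM, so no test was made. Cxcl2 did not exceed 1.37 TPM in any PT-S1 library.

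Ccl2, the main ligand of Ccr2 on monocytes, and Ccl7, which shares that receptor, were near 0 in most libraries and were not tested in any table. In PT-S1 Ccl2 was at 2.30 TPM in 1 library of UNx animal 3 and at 7.83 TPM in 1 library of UNx animal 5, both at 72 h. No other PT-S1 library held more than 0.53 TPM, and another library of each of these animals was listed at 0. In CCD at 72 h Ccl2 reached 5.21 TPM in 1 library of sham animal 4 and 4.47 and 1.24 TPM in those of UNx animal 4, and at 24 h no CCD library exceeded 0.70 TPM. Ccl7 was highest at 1.69 TPM in 1 sham CCD library at 24 h, the library that also held 30.6 TPM of Ccl20. The highest Ccl2 values belong to 1 or 2 libraries of an animal, and the animal means of the 72 h groups, 0.120 ± 0.119 and 0.967 ± 1.68 TPM in PT-S1 (SD, n = 5 each) and 0.566 ± 0.899 and 0.909 ± 1.3 TPM in CCD (SD, n = 4 each), differed by less than the spread between animals.

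Cxcl10, an interferon-induced ligand of Cxcr3 on T cells and natural killer cells, was present in nearly all libraries and differed widely within animals. In CCD at 24 h the sham libraries ran from 0.61 to 20.4 TPM (median 5.81) and the UNx libraries from 0.77 to 6.19 TPM (median 2.96). The animal means, 7.77 ± 5.13 TPM (SD, n = 4) and 3.35 ± 0.836 TPM (SD, n = 3), overlapped, with a difference of -0.80 (SE 0.45).

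Cxcl10 in CCD at 72 h had a difference of the opposite sign, without passing the test. The sham libraries held 9.95 and 34.2 TPM in animal 1, 1.71 in animal 2, 2.09 in animal 3 and 3.15, 11.8 and 48.0 TPM in animal 4. The UNx libraries held 3.99 and 5.96 TPM in animal 1, 43.1 in animal 2, 6.30 in animal 3 and 5.48 and 29.1 TPM in animal 4. Sham animals 2 and 3 were low and the other 6 animals overlapped, with means of 11.7 ± 11.3 and 17.9 ± 17.7 TPM (SD, n = 4 each) and a difference of 0.89 (SE 0.78, limma adjusted p = 0.894).

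In PT-S1 Cxcl10 was 0 to 4.52 TPM in sham and 0.05 to 12.4 TPM in UNx libraries at 24 h, and 0 to 14.1 and 0.24 to 8.88 TPM at 72 h. The 2 libraries of UNx animal 1 at 24 h held 12.4 and 0.09 TPM. The differences were 0.13 (SE 0.41, limma adjusted p = 0.866) at 24 h and 0.24 (SE 0.46, limma adjusted p = 0.741) at 72 h. The difference in effect between CCD and PT-S1 at 72 h was 0.65 (SE 0.94, limma adjusted p = 0.719).

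Cxcl12, the ligand of Cxcr4 that guides hematopoietic and lymphoid cells, was the member with the highest level in PT-S1 at 24 h. Sham libraries ran from 10.4 to 53.6 TPM (median 26.8) and UNx libraries from 10.6 to 72.3 TPM (median 41.1). The UNx animals 1 to 4 had means of 45.9, 29.2, 71.8 and 15.4 TPM and the sham animals 27.7, 32.4 and 29.2 TPM, so the sham values lay inside the UNx range. The difference of 0.34 (SE 0.42, limma adjusted p = 0.651) became -0.01 without UNx animal 3. At 72 h the means were 8.68 ± 4.04 and 7.38 ± 3.82 TPM (SD, n = 5 each), with a difference of -0.21 (SE 0.32, limma adjusted p = 0.669) that was 0.09 under median-ratio scaling and 0.12 under quantile normalization.

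In CCD Cxcl12 was 5.90 ± 1.21 TPM in sham (SD, n = 4) and 3.88 ± 1.33 TPM in UNx animals (SD, n = 3) at 24 h, with overlap and a difference of -0.53 (SE 0.23). At 72 h it was 3.42 ± 2.43 and 2.30 ± 1.05 TPM (SD, n = 4 each), a difference of -0.25 (SE 0.44, limma adjusted p = 0.959).

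Cx3cl1, a membrane-anchored chemokine that tethers cells carrying Cx3cr1, had the smallest spread between animals of the members tested in CCD (SD 0.26 at 24 h and 0.37 at 72 h on the log2 scale). At 24 h the sham libraries ran from 35.8 to 70.7 TPM (median 56.1) and the UNx libraries from 40.4 to 57.8 TPM (median 51.2), and the means of 52.1 ± 11.8 TPM (SD, n = 4) and 49.4 ± 3.94 TPM (SD, n = 3) differed by -0.04 (SE 0.16). At 72 h the sham libraries ran from 14.9 to 63.6 TPM and the UNx libraries from 31.2 to 48.6 TPM, with a difference of -0.20 (SE 0.22, limma adjusted p = 0.924). The lowest value, 14.9 TPM, is that of the sham library of low correlation, and without it the difference was -0.42 (limma adjusted p = 0.345). In PT-S1 the differences were 0.15 (SE 0.25, limma adjusted p = 0.748) at 24 h and 0.02 (SE 0.33, limma adjusted p = 0.971) at 72 h, and the latter was 0.43 (limma adjusted p = 0.365) without the 2 UNx libraries of low correlation, which held 1.67 and 2.15 TPM against 7.99 to 17.1 TPM in the other UNx libraries.

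**Figure D3:**
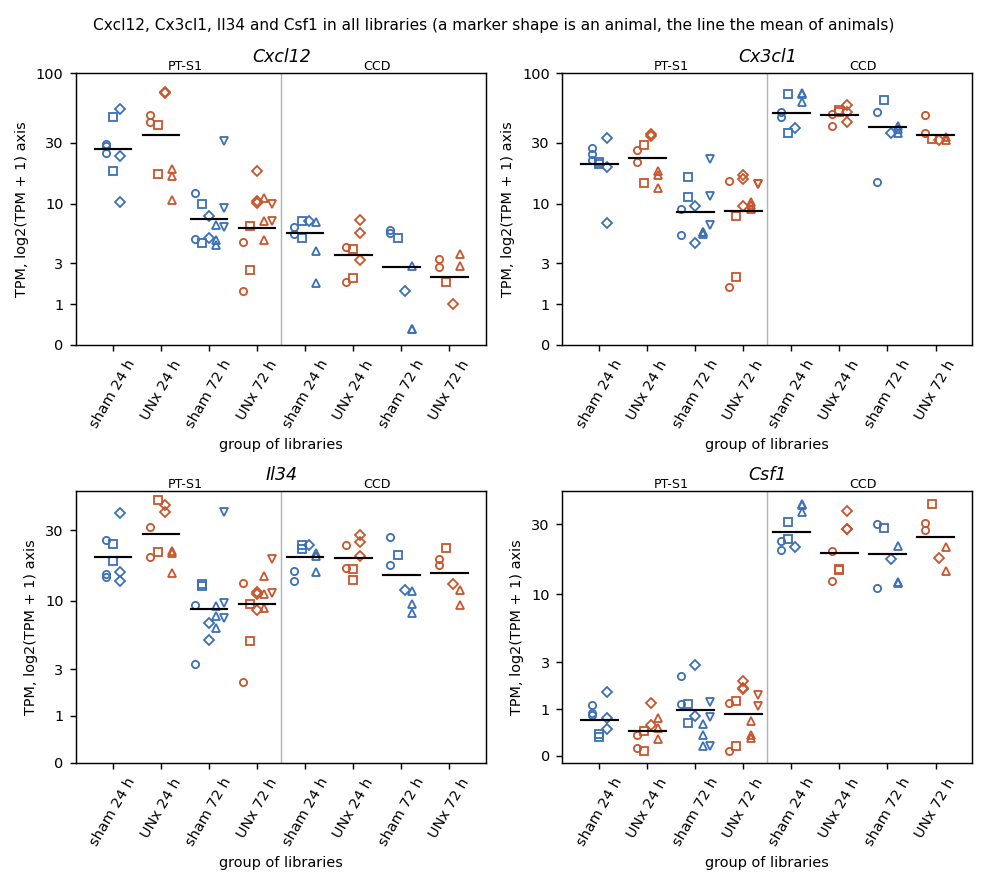
TPM of Cxcl12, Cx3cl1, Il34 and Csf1 in every library on a log2(TPM + 1) axis, by segment, operation and time; marker shapes are animals and the black line is the mean of the animals. Csf1 lies at 2.82 TPM or below in PT-S1 and at 10.98 TPM or above in CCD, and sham and UNx overlap for each gene.

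Of the ligand pair of Csf1r, Il34 was found in both segments, whereas Csf1 was far higher in CCD: all 28 CCD libraries lay between 10.98 and 41.2 TPM and all 41 PT-S1 libraries between 0.08 and 2.82 TPM. In PT-S1 at 24 h Il34 ran from 13.6 to 39.2 TPM (median 17.3) in sham and from 15.5 to 47.4 TPM (median 21.9) in UNx libraries. The sham animals had means of 18.6, 21.6 and 22.9 TPM and the UNx animals 25.9, 34.5, 41.8 and 19.6 TPM, so 3 of the 4 UNx animals lay above all sham animals. The difference of 0.50 (SE 0.24) did not pass (limma adjusted p = 0.296, unadjusted p = 0.064) and was 0.72 under median-ratio scaling (limma adjusted p = 0.231). At 72 h the means were 10.4 ± 5.52 and 10.5 ± 3.27 TPM (SD, n = 5 each), a difference of 0.10 (SE 0.30, limma adjusted p = 0.840). This Il34 difference was 0.42 under median-ratio scaling, 0.46 under quantile normalization, 0.39 without libraries of low correlation and 0.65 with arrayWeights, with limma adjusted p from 0.071 to 0.450.

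In PT-S1 the medians of Il34, Cxcl12 and Cx3cl1 were higher in libraries higher in S3 markers. The 4 libraries at 24 h with an S3 marker sum of at least 100 TPM held 25.8 to 47.4 TPM of Il34 (median 39.5), against 13.6 to 43.8 TPM (median 20.0) in the other 13, of which the highest had an S3 sum of 72.6 TPM. At 72 h the 4 such libraries held 9.57 to 39.8 TPM (median 13.7) and the other 20 held 2.31 to 19.4 TPM (median 8.99). The highest value at 72 h, 39.8 TPM, and the highest S3 sum, 1092 TPM, belonged to the same library of sham animal 5, which also had the highest Cxcl12 of its table at 31.0 TPM. The median of Cxcl12 was 47.4 TPM in the libraries with S3 markers and 23.7 TPM in the others at 24 h, and 10.5 and 6.46 TPM at 72 h. That of Cx3cl1 was 30.8 and 20.5 TPM at 24 h and 10.8 and 9.27 TPM at 72 h. The ranges overlapped for each gene at both times. The highest Cxcl12 and Cx3cl1 at 24 h, 72.3 and 34.8 TPM, were in the library with an S3 sum of 72.6 TPM. Endothelium markers summed to 267.5 TPM in that library, and to 52.34 TPM in the 72 h library highest in Cxcl12. Without the libraries at 100 TPM or more, a level chosen after seeing the data, the Il34 difference was 0.61 at 24 h (limma adjusted p = 0.688) and 0.23 at 72 h (limma adjusted p = 0.535). The Cxcl12 difference was then 0.36 at 24 h and 0.0018 at 72 h, and that of Cx3cl1 was 0.19 and -0.024. The S3 marker sum alone does not identify S3 tubule, as CCD libraries also held these markers. The part of S3 tubule or of endothelium in these differences was not tested.

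**Figure D4:**
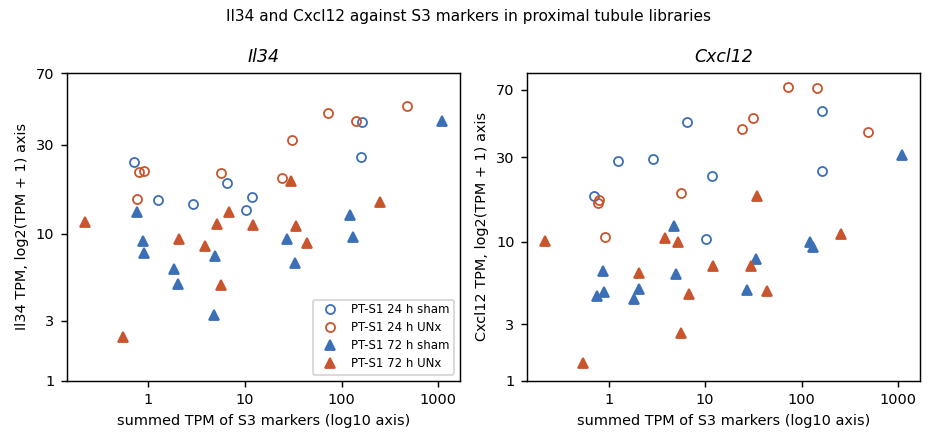
Il34 (left) and Cxcl12 (right) in each PT-S1 library on a log2(TPM + 1) axis against the summed TPM of 4 S3 markers on a log10 axis; open circles are 24 h, filled triangles 72 h, blue sham and orange UNx. The triangle at an S3 sum of 1092 TPM has the highest Il34 and Cxcl12 of the 72 h libraries.

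In CCD Il34 was 20.3 ± 4.21 TPM in sham (SD, n = 4) and 20.04 ± 4.53 TPM in UNx animals (SD, n = 3) at 24 h and 16.1 ± 6.22 and 16.3 ± 5.60 TPM (SD, n = 4 each) at 72 h, where the difference was 0.04 (SE 0.30, limma adjusted p = 0.993). Csf1 in CCD was 27.4 ± 8.36 TPM in sham (SD, n = 4) and 20.6 ± 8.85 TPM in UNx animals (SD, n = 3) at 24 h, a difference of -0.44 (SE 0.28), and 20.3 ± 5.68 and 26.4 ± 11.0 TPM (SD, n = 4 each) at 72 h, a difference of 0.36 (SE 0.28, limma adjusted p = 0.887). In PT-S1 Csf1 was tested at 72 h alone, with a difference of -0.07 (SE 0.24, limma adjusted p = 0.856). Its effect in CCD minus that in PT-S1 at 72 h was 0.43 (SE 0.40, limma adjusted p = 0.578).

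Counted over the members, no test passed in the 3 tables the choice did not use. In PT-S1 at 24 h 0 of 4 members tested passed, beside 0% of 11874 genes, although 17.8% of these had an unadjusted p under 0.05. At 72 h 0 of 5 passed, beside 0% of 11886 genes, although 20.5% of these had an unadjusted p under 0.05. In CCD at 72 h 0 of 8 passed, beside 0.595% of 13770 genes, and the animals of no member were without overlap, beside 4.77% of all genes. No member had an unadjusted p under 0.05 in these 3 tables, beside 7.49% of genes in CCD at 72 h and the shares above in PT-S1. The median difference of the members was 0.24 in PT-S1 at 24 h, 0.02 at 72 h and -0.15 in CCD at 72 h, beside -0.19, -0.29 and 0.01 over all genes. Under median-ratio scaling the members' median was 0.47 in PT-S1 at 24 h and 0.32 at 72 h, beside 0.01 over all genes at both times.

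In CCD at 24 h 8 members were above the level for testing and all 8 differences were below 0, with a median of -0.67 beside -0.04 over all genes, of which 58.2% were below 0. The values of Cx3cl1 and Il34 changed sign under median-ratio scaling. Ccl20, Cxcl1 and Cxcl2 had animals of UNx below all those of sham, beside 9.51% of all 13775 genes. This contrast chose the members, so nothing is read from these counts.

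The differences of effects did not pass either. The UNx effect at 72 h minus that at 24 h in PT-S1 was tested for 4 members, of which 0 passed, beside 0% of 11455 genes: -0.55 for Cxcl12 (SE 0.57), -0.40 for Il34 (SE 0.43), -0.12 for Cx3cl1 (SE 0.48) and 0.11 for Cxcl10 (SE 0.70), each with a limma adjusted p of 0.998. The UNx effect in CCD minus that in PT-S1 at 72 h was tested for 5 members, of which 0 passed, beside 0% of 11035 genes, with limma adjusted p between 0.578 and 0.973.

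**Figure D5:**
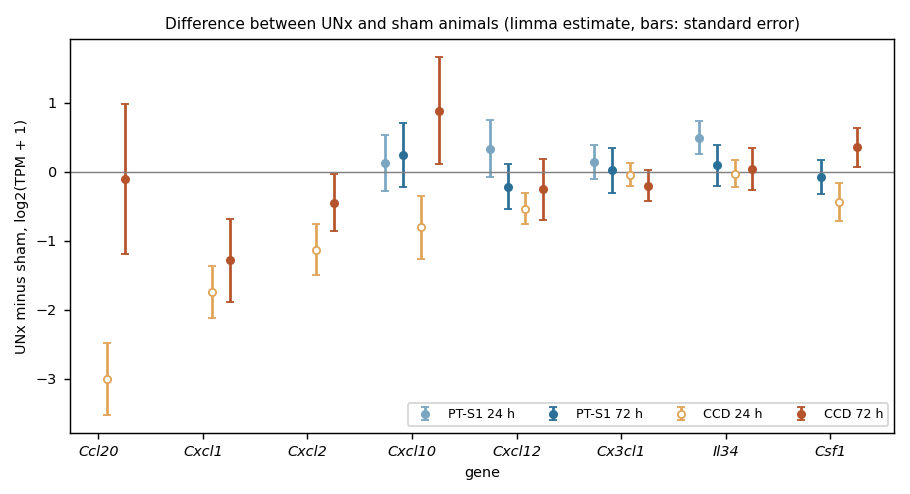
UNx minus sham on the log2(TPM + 1) scale for the 8 members above the level for testing in at least 1 table, with the standard error of the limma fit as bars; open symbols mark CCD at 24 h, the contrast that chose the members. Ccl20 lies at -3.00 at 24 h and at -0.11 at 72 h in CCD, where its standard error is 1.09.

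The receptors of the members were mostly low in these tubules, apart from Ackr3 and, in CCD, Sdc1. Of 16 receptor genes, 3 to 5 were above the level for testing in a table, and 0 passed in any table, beside 0% to 0.987% of all genes. Ackr3, a scavenger receptor that binds Cxcl12 without classical signalling, averaged 132.2 ± 7.51 TPM in the CCD (SD, n = 4) and 28.9 ± 6.28 TPM in the PT-S1 (SD, n = 3) of sham animals at 24 h. Cxcr4 was 7.03 ± 0.396 TPM in sham (SD, n = 4) and 5.37 ± 2.82 TPM in UNx CCD (SD, n = 3) at 24 h. At 72 h it was 3.09 ± 1.17 and 3.07 ± 1.15 TPM in CCD (SD, n = 4 each), and it reached at most 0.13 TPM in any PT-S1 library. Sdc1, a syndecan that can bind Il34, averaged 39.1 ± 9.66 TPM in CCD (SD, n = 4) and 3.9 ± 1.04 TPM in PT-S1 (SD, n = 3) of sham animals at 24 h.

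The receptors carried by leukocytes were at low levels. Csf1r averaged 2.10 to 6.34 TPM over the 8 groups and Cx3cr1 0.793 to 1.32 TPM. Ccr6, the receptor of Ccl20, did not reach 1 TPM in any library, and neither did Cxcr2, Cxcr1 and Cxcr3. Neutrophil markers summed to 36.2 TPM at most in CCD libraries of UNx animals at 24 h and 0.96 TPM at most in those of sham animals, while their medians were 0.11 and 0.28 TPM. High single libraries of UNx animals were not particular to that table. The highest UNx and sham sums were 25.47 and 0.4 TPM in PT-S1 at 24 h and 86.45 and 0.6 TPM at 72 h. In CCD at 72 h they were 6.26 and 3.3 TPM. The library at 86.45 TPM is 1 of those of low correlation.

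Other secreted mediators gave no call. Of 26 other chemokines 3 to 8 were tested in a table and 0 passed, and of 29 other cytokines 8 to 14 were tested and 0 passed. Over all genes 0% passed in PT-S1 at either time, 0.987% in CCD at 24 h and 0.595% in CCD at 72 h. With so few genes tested, 0 is near these shares. Cxcl16, a transmembrane chemokine that binds Cxcr6, was far above the members, at 145.7 ± 38.9 TPM in sham (SD, n = 4) and 105.3 ± 8.59 TPM in UNx (SD, n = 3) CCD at 24 h (difference -0.43, limma adjusted p = 0.320) and, for PT-S1 of sham animals at 24 h, 145.6 ± 35.2 TPM (SD, n = 3). Ccl25 was 16.6 ± 1.94 TPM in sham CCD at 24 h. Mif, a cytokine, and Spp1, the secreted matrix protein osteopontin, were at 778.4 ± 95.0 and 562.1 ± 165 TPM in the same animals.

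NF-kappaB response genes had mostly negative differences in collecting ducts at 24 h, none past the threshold. Of the 22 genes on the list, all were tested and 0 passed (0.987% of all genes did). Below 0 were 19, beside 58.2% of all genes, and the median was -0.36. At an unadjusted p under 0.05 7 were lower and 1 higher (9.97% and 5.55% of all genes). Sod2 (487.5 ± 30.8 TPM in sham and 480.1 ± 25.4 TPM in UNx) and Ier3 (482.9 ± 165 and 329.9 ± 142 TPM, difference -0.57, limma adjusted p = 0.453) were the highest of them. At 72 h 0 of 20 passed, beside 0.595% of all genes, and 14 were below 0, beside 47.8%, with a median of -0.16. Of these 20, 3 were lower and 1 higher at an unadjusted p under 0.05 (2.82% and 4.66% of all genes). Ier3 was then at 961.8 ± 568 TPM in sham and 357.2 ± 275 TPM in UNx (SD, n = 4 each, difference -1.45, limma adjusted p = 0.531). In PT-S1 10 of 17 tested were below 0 at 24 h, with a median of -0.13, beside 70.9% and -0.19 over all genes. At 72 h 16 of 17 were below 0, with a median of -0.31, beside 83% and -0.29. There 1 and 2 were lower at an unadjusted p under 0.05 (15.2% and 19.1% of all genes), and 0 passed, beside 0%.

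Interferon response genes had medians of opposite sign at the 2 times in CCD, without a call. At 24 h 15 of 17 tested were below 0, beside 58.2% of all genes, with a median of -0.36. Of these 17, 0 passed the threshold, beside 0.987% of all genes, and 1 was lower at an unadjusted p under 0.05 (9.97% of all genes). At 72 h 0 of 18 were below 0, beside 47.8% of all genes, with a median of 0.47. Of these 18, 0 passed the threshold, beside 0.595% of all genes, and 5 were higher at an unadjusted p under 0.05 (4.66% of all genes). Bst2, a membrane protein that tethers virus particles, averaged 64.8 ± 18.5 TPM in sham animals and 92.0 ± 33.1 TPM after UNx at 72 h (SD, n = 4 each; difference 0.45, limma adjusted p = 0.855). In PT-S1 9 of 14 tested were below 0 at 24 h, with a median of -0.10, and all 17 at 72 h, with a median of -0.45, beside 70.9% and 83% of all genes.

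Immediate early genes, which respond within minutes to stimuli that include tissue handling, had mostly negative differences at both times in both segments, again with none past the threshold. In CCD at 24 h 13 of 14 tested were below 0 with a median of -0.49, beside 58.2% of all genes below 0. Of these 14, 1 was lower at an unadjusted p under 0.05 (9.97% of all genes). At 72 h 13 of 14 were below 0, beside 47.8%, with a median of -1.11, and 10 were lower at an unadjusted p under 0.05 (2.82% of all genes), with 0 past the adjusted threshold. At 72 h Fos averaged 3822 ± 1271 TPM in sham animals and 1497 ± 956 TPM after UNx (SD, n = 4 each; difference -1.54, limma adjusted p = 0.337), and 2629 ± 498 (SD, n = 4) and 1779 ± 770 TPM (SD, n = 3) at 24 h (difference -0.70, limma adjusted p = 0.367). In PT-S1 all 10 tested were below 0 at 24 h with a median of -0.66, beside 70.9% and -0.19 over all genes. At 72 h all 11 were below 0 with a median of -0.52, beside 83% and -0.29 over all genes. In PT-S1 0 passed the threshold at either time, beside 0% of all genes. There 6 and 3 were lower at an unadjusted p under 0.05 (15.2% and 19.1% of all genes). The part of these genes in the values of Cxcl1, Cxcl2 and Ccl20 was not tested.

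The genes whose levels were most like those of Ccl20 over the 15 CCD animals of both times were Tsen15, Srp14, Pqbp1, Chmp5 and Ephx1. Pearson's r of the deviations from the mean of each table was 0.877, 0.848, 0.842, 0.835 and 0.830, the highest of 9665 genes with a mean of at least 5 TPM, and libraries and tables are shared by all of these points. Of the 15 animals 7 are those of CCD at 24 h, whose Ccl20 values chose the genes, and the deviations include the difference between sham and UNx there, so this is a description. Tsen15, a subunit of the tRNA splicing endonuclease, averaged 48.3 ± 4.67 TPM in the sham animals (SD, n = 4) and 41.6 ± 0.374 TPM after UNx (SD, n = 3) at 24 h. The other members were less alike, from -0.34 for Ccl2 to 0.48 for Il34, with 0.30 for Cxcl1 and 0.11 for Cxcl2.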

How the data were processed

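Libraries of microdissected mouse tubules (69 columns, 1 per sample) were analysed in 4 tables, by segment and time. The authors deposited TPM values per gene, scaled so that each library sums to 1e+06. STAR and RSEM 1.3.3 were used with build GRCm39, per the submitters' processing notes, and the annotation release is not given in the sources used here. TPM keeps no depth, so counting error and detection limits could not be given. For 47 columns the name matched 1 sample. For 22 it matched the group and animal but not the library number, which does not touch animal means. No 2 columns were identical.

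From these values log2(TPM + 1) was computed and averaged over the libraries of an animal. Genes with a mean of at least 1 TPM over the animals were compared between UNx and sham with limma 3.58.1 in R 4.3.3 (empirical Bayes with trend, two-sided, Benjamini-Hochberg over all genes tested, threshold 0.05), after checks on simulated data. Differences of effects were tested by limma in models of 4 groups, over genes at 1 TPM or more in both tables. Overlap of sham and UNx was judged on animal means of log2(TPM + 1), and that between genes or segments on mean TPM per animal. The members and gene lists (19 of 20 interferon genes were found by symbol) were chosen with earlier results of these data known. All members were named. From each other list a table's genes past the threshold were to be named, and where none passed the 2 with the highest mean TPM, from which the text takes examples; Cxcr4, Csf1r, Cx3cr1, Ccr6, Cxcr1, Cxcr2 and Cxcr3 were named as receptors of members. Genes most like Ccl20 were the 5 with the highest Pearson's r, predicted genes passed over. Promoter letters are RefSeq's on GRCm38.p6, and the last 250 bases before the start were searched. The labels do not say whether PT-S1 and CCD came from the same mice, and the segments were treated as unpaired. Alternatives were another pseudocount (0.1), other filters, scalings and replicate models, a block by animal number, and leaving out animals or libraries.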

Additional observations from a re-analysis of the deposited data

Results flagged for a closer look

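In CCD at 72 h Cx3cl1 had 1 UNx animal apart from the others. Animal 1 averaged 42.2 TPM over its 2 libraries, and the other 3 UNx animals lay between 31.2 and 32.3 TPM. The gap between animal 1 and its nearest neighbour took 0.883 of the range of the 4 animals on the log2(TPM + 1) scale, above the critical value of 0.829 for 4 values. Of 38 groups of animals examined in this way this was the only one, and chance alone puts about 1 group in 20 past the critical value. The value of 42.2 TPM lies inside the range of the sham animals, 33.1 to 63.6 TPM. No member had an effect of UNx that passed the test for a difference between times or segments.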

How the results depend on the processing

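The count of members past the threshold was 0 under every alternative in the 3 tables not used by the choice and in both differences of effects. For CCD at 24 h, the contrast that chose the members, the count is no test and nothing is read from it. It was 1 on the settings used, 0 with no filter, 0 with the replicate block, 2 with a random effect of animal and 3 with every library as a replicate, which ignores that libraries share animals. With 1 animal fewer it was 0 or 1, and it was 0 without sham animal 1, 3 or 4 or UNx animal 1 or 2. The replicate block could not be applied to the differences of effects. Same-numbered sham and UNx animals correlated from -0.366 to 0.328 in their deviations, so the numbers were not taken to pair them. Of 570 values of tested members under the alternatives, 0 passed (lowest adjusted p = 0.060), and 90 had the opposite sign, each of them for a member that had not passed. The cause of these changes of sign was not tested. For PT-S1 at 24 h, Cxcl10 was -0.012 with a pseudocount of 0.1, -0.41 with arrayWeights and -0.039 without libraries of low correlation. Cx3cl1 was -0.021 without libraries of low correlation. Values without 1 animal ran from -0.14 to 0.53 for Cxcl10, from -0.015 to 0.71 for Cxcl12 and from -0.044 to 0.31 for Cx3cl1. For PT-S1 at 72 h, Cxcl10 was -0.43 with arrayWeights. Cxcl12 was 0.12 under quantile normalization, 0.087 under median-ratio scaling, 0.18 with arrayWeights, 0.013 without libraries of low correlation and 0.0018 without libraries with S3 markers. Cx3cl1 was -0.014 with a pseudocount of 0.1 and -0.024 without libraries with S3 markers. Csf1 was 0.070 under quantile normalization, 0.016 under median-ratio scaling, 0.0080 with every library as a replicate, 0.10 with arrayWeights and 0.12 without libraries of low correlation. Values without 1 animal ran from -0.11 to 0.52 for Cxcl10, from -0.43 to 0.024 for Cxcl12, from -0.15 to 0.24 for Cx3cl1, from -0.053 to 0.27 for Il34 and from -0.21 to 0.020 for Csf1. For CCD at 72 h, Ccl20 was 0.24 with a pseudocount of 0.1 and 0.28 with arrayWeights. Cxcl12 was 0.040 with every library as a replicate and 0.21 with arrayWeights. Il34 was -0.033 without libraries of low correlation. Values without 1 animal ran from -1.04 to 0.63 for Ccl20, from -0.59 to 0.037 for Cxcl12, from -0.36 to 0.024 for Cx3cl1 and from -0.16 to 0.22 for Il34. For the PT-S1 effect at 72 h minus that at 24 h, Cxcl10 was -0.30 on the log2 of the mean TPM, -0.076 with every library as a replicate, -0.062 with a random effect of animal and -0.094 with arrayWeights. Cxcl12 was 0.086 with arrayWeights. Cx3cl1 was 0.027 on the log2 of the mean TPM, 0.57 with arrayWeights and 0.45 without libraries of low correlation. Il34 was 0.19 with arrayWeights and 0.017 without libraries of low correlation. Values without 1 animal ran from -0.29 to 0.39 for Cxcl10 and from -0.29 to 0.091 for Cx3cl1. For the 72 h effect in CCD minus that in PT-S1, Cxcl12 was 0.065 with a pseudocount of 0.1, 0.18 with every library as a replicate, 0.16 with a random effect of animal and 0.063 with arrayWeights. Il34 was 0.0044 with every library as a replicate. Values without 1 animal ran from -0.37 to 0.25 for Cxcl12, from -0.44 to 0.0026 for Cx3cl1 and from -0.26 to 0.12 for Il34. Leaving out libraries with S3 or thick ascending limb markers was chosen after seeing the data. In CCD at 24 h a pseudocount of 0.1 gave -5.70 for Ccl20, -2.38 for Cxcl1 and -2.36 for Cxcl2. With detection set at 1 TPM in place of above 0, 49 of 80 counts of libraries per gene and group stayed within 1.5 times. The count over all genes, the background of the members' counts, moved more. In PT-S1 it was 0 at both times and became 1426 at 24 h and 1346 at 72 h with arrayWeights, 85 and 18 with every library as a replicate, 100 and 10 with a random effect of animal, and 81 and 0 with the replicate block. In CCD at 24 h it was 136 and became 1 with no filter, 0 with the replicate block, 204 with arrayWeights, 485 with a random effect of animal, 1027 with every library as a replicate and 7 to 78 without 1 animal. In CCD at 72 h it was 82 and became 7 with no filter, 39 at a mean of at least 5 TPM, 3 with the replicate block, 150 with every library as a replicate, 129 without libraries of low correlation and 8 to 73 without 1 animal. For the differences of effects it was 0, and 376 in PT-S1 and 64 between segments with arrayWeights, and 187 and 9 without libraries of low correlation. Unknown depth limits all values near 0, and 3 to 5 animals per group limit every test.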
